A study of Urocitellus parryii with 3 samples.

Results

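mmu-miR-320 was 1 of the 567 mouse miRNA entries on the array, and it was taken as all non-control spots that carry that name: 20 spots per array, 10 for each of 2 probes. Liver RNA was taken at 3 stages from arctic ground squirrels, Urocitellus parryii, hibernating rodents of the far north. They were late torpor (the cold, inactive phase of hibernation), early arousal (the start of rewarming) and post-reproduction (after breeding, outside hibernation). Equal amounts of total RNA from the animals of a stage were pooled, and each stage's pool, labelled with the dye Cy3, was put on 1 array. How many animals formed a pool, and their sex and age, are not given in the sources used here, and no genotype or treatment is named. With 1 array per stage no difference has a replicate check, stage and array cannot be told apart, and the errors below come from the repeated spots of a probe only. In bulk liver RNA, fewer cells that hold miR-320 and less miR-320 per cell cannot be told apart either.

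Most miRNAs are cut from a long primary transcript by the nuclease Drosha. miR-320 is a known exception: its hairpin begins at the transcription start site, carries the cap of a messenger RNA, leaves the nucleus without a Drosha cut and is then processed by Dicer. It is known as a metabolic miRNA because it represses phosphofructokinase, a control point of glycolysis, and because it changes in fat cells that respond poorly to insulin. In mammals its hairpin lies beside the promoter of the gene of an RNA polymerase III subunit.

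Both probes read the same stretch of the miRNA. On the mouse genome (mm9, the build named in the file headers) the longer probe has a target of 13 bases, chromosome 14 from 70843373 to 70843385. The shorter probe has a target of 12 bases, from 70843374 to 70843385. The files list both in descending order. The targets differ by 1 base at one end, so the probes are not independent measurements of the miRNA. They are called the 13-base and the 12-base probe here. What the mm9 annotation places there was not analysed here, and how well a mouse probe pairs with the squirrel RNA was not tested.

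The 13-base probe was brightest on the post-reproduction array. Spot values here are deposited intensities, the mean signal minus a fitted background surface. In post-reproduction the 10 spots ran from 43.6 to 53.7 intensity units, with a median of 48.3 and a mean of 48.8 ± 3.16 (SD, 10 spots). In early arousal they ran from 26.0 to 33.6, with a median of 30.5 and a mean of 30.3 ± 2.48 (SD, 10 spots). In late torpor the 9 spots kept ran from 24.1 to 28.8, with a median of 27.6 and a mean of 26.9 ± 1.70 (SD, 9 spots). The dimmest post-reproduction spot was brighter than the brightest spot of either hibernation stage, whereas the early arousal and late torpor ranges overlapped. The tenth late torpor spot, left out as an outlier of its probe's population, read 23.0, below the 9 others. The scanner program's own error averaged 5.33 units for a spot in post-reproduction, 3.65 in early arousal and 3.18 in late torpor, more than the SD of the spots on each array.

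The 12-base probe was dimmer on every array. Its mean was 13.9 ± 2.24 in post-reproduction, 11.7 ± 1.88 in early arousal and 8.49 ± 1.48 in late torpor (SD, 10 spots each). The spots ran from 9.32 to 17.2, from 8.93 to 13.9 and from 6.25 to 10.9 in that order, so all 3 ranges overlapped. The program marked 9 of the 10 spots as well above background in post-reproduction, 7 in early arousal and 5 in late torpor. For the 13-base probe every kept spot had that mark on all 3 arrays. Detection of a probe required the mark on over 50% of the spots kept, so the 12-base probe was not well above background in late torpor. The value of miR-320 across stages therefore rests on the 13-base probe.

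**Figure D1:**
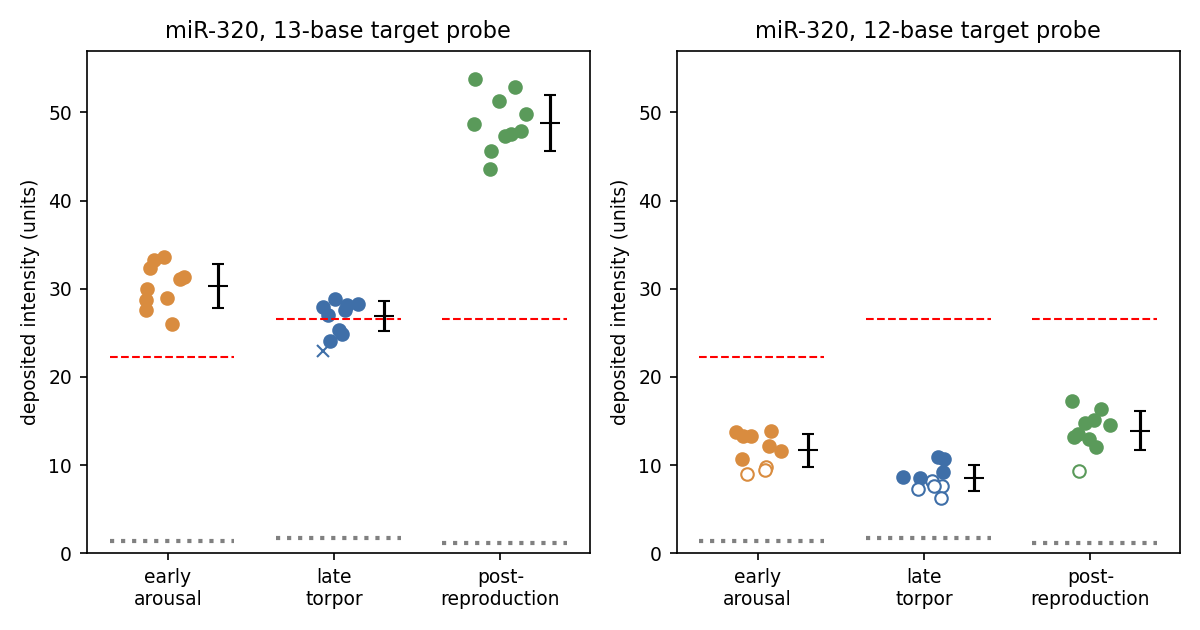
Deposited intensity of every miR-320 spot by stage, for the 13-base probe (left) and the 12-base probe (right), both from 0. Filled circles are spots well above background, open circles are not, the cross is the outlier spot, and black bars are mean ± SD of the kept spots. Dashed red lines mark the brightest viral probe and dotted grey lines the median negative control spot of that array. The post-reproduction spots of the 13-base probe (43.6 to 53.7) lie apart from the others, and the late torpor spots lie around the viral probe's 26.5.

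These are low intensities, so the background matters. Under the 13-base spots the fitted background surface averaged 56.8 units in post-reproduction, 58.0 in late torpor and 55.5 in early arousal, more than the miR-320 signal itself on every array. The median of 672 negative control spots was 1.21, 1.69 and 1.36 units in that order. Of these control spots 4, 1 and 1 exceeded the mean of the 13-base probe, and 12, 12 and 11 that of the 12-base probe. Of 40 probes for viral miRNAs, which serve as background, 0 reached the 13-base probe on any array. The 12-base probe was reached by 4 of them in post-reproduction, 6 in late torpor and 3 in early arousal. The nearest to the 13-base probe were those of mghv-miR-M1-2. Its brightest probe read 26.6 in post-reproduction, 26.5 in late torpor and 22.2 in early arousal. The 13-base probe was 1.84 times as bright as that in post-reproduction, 1.01 times in late torpor and 1.36 times in early arousal. All 4 probes of that entry were detected on every array. The brightest probe of the other viral entries read 5.60 in post-reproduction, 10.02 in late torpor and 2.67 in early arousal, well below the 13-base probe. On the late torpor array the 13-base probe was thus about as bright as 1 viral entry and brighter than the rest. After scaling, the 4 probes of that entry had log2 differences of 0.18 to 0.38 in late torpor minus post-reproduction, where miR-320 was at -0.67. Before scaling its brightest probe was nearly level between those arrays (26.5 and 26.6). In early arousal minus post-reproduction the 4 probes ran from -0.34 to 0.19, and in early arousal minus late torpor from -0.53 to -0.18. Whether signal of this kind has a part in the miR-320 values was not tested.

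For comparison between stages each array was scaled to the 75th percentile of the log2 intensities of the 250 probes detected on all 3 arrays, which stood at 398.3 units in post-reproduction, 350.4 in early arousal and 349.1 in late torpor. The scaled log2 value of miR-320 was -3.03 in post-reproduction, -3.54 in early arousal and -3.70 in late torpor. A difference was past the rule of size where it was at least 1 on the log2 scale (2-fold), over 2 times its standard error (SE), and alike in sign for every detected probe. A miRNA with a probe detected on all 3 arrays is called measured, which holds for 135 of the 567. Scaling sets where 0 lies for all miRNAs at once. Against the 88 of 135 that were higher in late torpor than in post-reproduction, 6 other scalings gave 29 to 72, with the median of all moved by -0.39 to -0.11. Signs of small differences and counts of higher and lower members are therefore read beside those of all 135. There is no test of any of these differences, and the number of arrays limits their precision.

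The late torpor liver was compared with the liver outside hibernation to see what differs in deep hibernation. miR-320 was 1.59-fold lower in late torpor (95% interval from spots 1.50 to 1.69), a log2 difference of -0.67 ± 0.04 (SE from spots). The intensity was lower at 9 of 9 spot positions of the 13-base probe and at 10 of 10 of the 12-base probe. All counts of spot positions here use intensities before scaling. The 12-base probe gave -0.52 ± 0.11. That probe was not well above background in late torpor. With its late torpor value set to the lowest spot well above background there, it was 1.42-fold brighter in post-reproduction. The 95% interval from spots of its difference was 1.23- to 1.67-fold. miR-320 fell short of the rule of size, which 2.22% of the 135 measured mouse miRNAs passed, all of them higher in late torpor. It ranked 3rd from the lowest of the 135, after miR-200b (-0.89) and miR-378 (-0.77), and just below miR-152 (-0.63). The median of all 135 was 0.13 and their middle 50% ran from -0.11 to 0.36, so miR-320 lay 0.80 below the median. That distance and the rank are the same under any scaling that shifts a whole array. With the array scaled on all probes by their deposited intensity, without replacing spots at or below 0, the difference was -1.06 and miR-320 passed the rule. Under that scaling the median of all 135 was -0.26, and 7 of the 135 passed, 6 of them lower in late torpor. With the normexp background correction, which adds 50 units to every spot, it was -0.16.

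Early arousal was compared with post-reproduction to see what differs when rewarming has begun. miR-320 was 1.42-fold lower in early arousal by the 13-base probe (95% interval from spots 1.33 to 1.52), a log2 difference of -0.51 ± 0.05. It was lower at 10 of 10 spot positions. The 12-base probe, detected on both arrays, gave only -0.06 ± 0.11, with an interval of -0.28 to 0.15. Before scaling its difference was -0.25, with lower values at 6 of 10 positions. The probes differed by 0.44 ± 0.12 on the log2 scale (13-base minus 12-base, -0.68 to -0.21). Among 105 other mouse miRNAs with at least 2 probes detected on both arrays, the range of the probes' differences had a median of 0.073, and it was as wide as that of miR-320 in 1, miR-712. Among the 11 of them with a probe dimmer than the 12-base probe's 13.9 units, the median range was 0.11. With both probes averaged the difference was -0.29 ± 0.06. By the 13-base probe miR-320 was the 12th lowest of 135, 0.57 below the median of 0.06. It did not pass the rule of size, which 3.70% of the measured miRNAs passed. With normexp the difference was -0.12.

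Early arousal was compared with late torpor to see what differs between the stages within hibernation. The 13-base probe was 1.12-fold higher in early arousal (95% interval from spots 1.05 to 1.20), a log2 difference of 0.16 ± 0.05, and higher at 9 of 9 positions. The 12-base probe gave 0.46 ± 0.11 (95% interval from spots 1.18- to 1.59-fold), with higher values at 8 of 10 positions. With its late torpor value set to the lowest spot well above background there, it was 1.35-fold brighter in early arousal. The spot ranges of the 2 arrays overlapped for both probes. With the array scaled on all probes the difference was -0.08, where the median of all 135 moved alike, to -0.34, and miR-320 kept its distance from it. miR-320 was the 22nd highest of 135, 0.26 above the median of -0.09, and it did not pass the rule of size, which 2.96% passed. The order of the 13-base probe, late torpor below early arousal below post-reproduction, was shared by 11 of the 135 measured miRNAs, miR-320 included. Other scalings gave 7 to 51, and with all probes in the scaling miR-320 was not among the 7. By the 13-base probe the spots of late torpor and early arousal, neighbours in that order, overlapped, so only post-reproduction stood clear of the others. By the 12-base probe no stage stood clear. Against post-reproduction that probe had late torpor at -0.52 ± 0.11 and early arousal at -0.06 ± 0.11. In early arousal minus late torpor the probes differed by -0.29 ± 0.12 (13-base minus 12-base, -0.53 to -0.06).

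**Figure D2:**
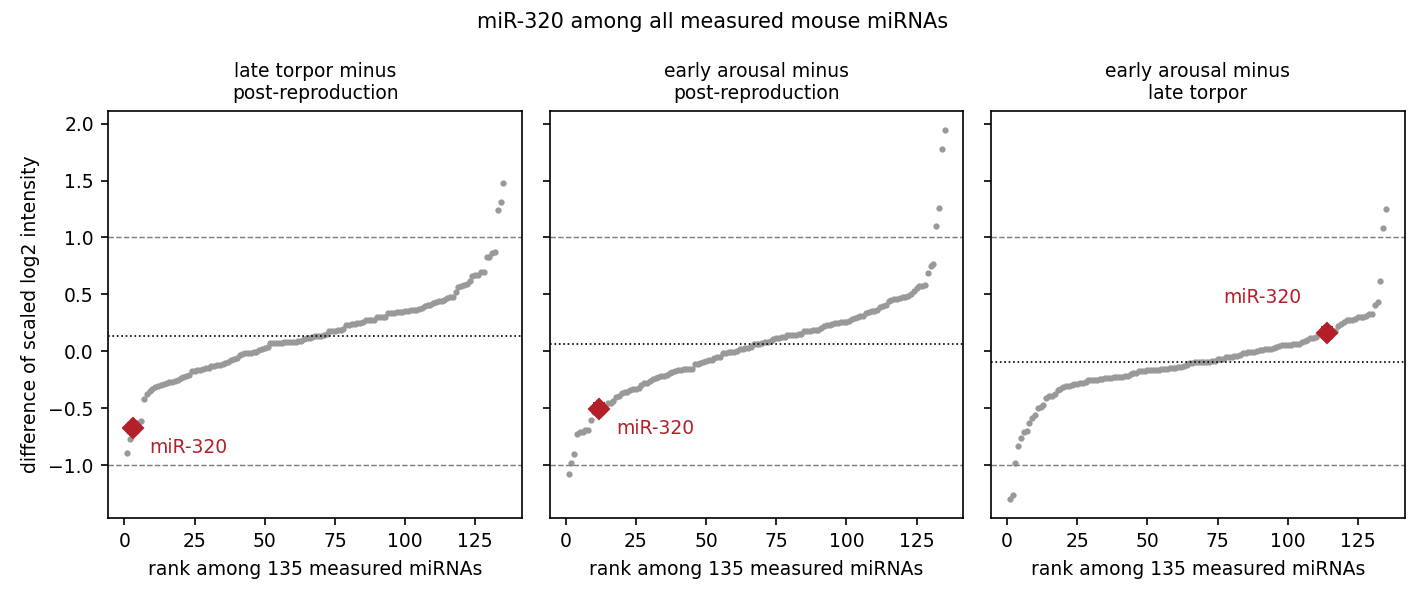
Difference of scaled log2 intensity (vertical axis) for the 135 measured mouse miRNAs, ranked from lowest to highest (horizontal axis), for the 3 comparisons. Grey dots are miRNAs, the red diamond is miR-320 with its SE from spots, the dotted line is the median and the dashed lines mark the rule of size at 1 and -1. miR-320 lies at rank 3 from the bottom in late torpor minus post-reproduction (-0.67), 12th in early arousal minus post-reproduction (-0.51) and among the upper ranks in early arousal minus late torpor (0.16).

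In brightness miR-320 lay in the lower part of the measured miRNAs. It ranked 83rd of 135 in post-reproduction, 100th in early arousal and 107th in late torpor. In these ranks miR-320 stands on its brighter probe alone, whereas 105 of the 135 average at least 2 probes. Among all miRNAs detected on an array, each by its brightest probe, it ranked 90th of 143, 109th of 152 and 113th of 158 in that order. Probes differ in how strongly they bind, so these ranks order spots by brightness and not miRNAs by amount. Its nearest neighbours were miR-350 (31.1 units) and miR-199b* (28.7) in early arousal, with miR-144 (31.3) and miR-222 (28.5) next. In late torpor they were miR-331-3p (27.6) and miR-125a-5p (26.8), with miR-500 (28.3) and miR-212 (25.9) next. In post-reproduction they were miR-7a (49.0) and miR-374 (48.4), with miR-486 (52.4) and miR-186 (45.9) next. No name recurred among the 4 neighbours of different arrays. The 55 other measured miRNAs within 2-fold of the mean level of miR-320 over the arrays had a median difference of 0.08 between late torpor and post-reproduction. Of these, 2 were lower than miR-320. Close above it among these were miR-152 (-0.63 ± 0.05), miR-186 (-0.63 ± 0.05) and miR-200a (-0.62 ± 0.07). In early arousal minus post-reproduction the median of the 55 was 0.02, and 8 were lower than miR-320. Whether low brightness has a part in the value of miR-320 was not tested.

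The 5 measured miRNAs nearest to miR-320 in their pattern over the 3 arrays were miR-152, miR-200a, miR-186, miR-200b and miR-483*. Likeness was the Euclidean distance between the scaled log2 values after each miRNA's mean over the arrays was taken away, and it was 0.10, 0.13, 0.17, 0.18 and 0.23 in that order. miR-152 belongs to the seed family of the hepatocyte miRNA miR-148a. Its intensity was 20.4 units in late torpor, 20.6 in early arousal and 35.5 in post-reproduction. miR-200a and miR-200b, miRNAs of epithelia such as the bile duct, read 20.6 and 35.8 in late torpor, 25.0 and 40.2 in early arousal and 35.7 and 75.5 in post-reproduction. miR-186 read 25.9, 24.9 and 45.9, and miR-483*, the star strand of a hairpin in an intron of Igf2, read 16.3, 16.6 and 23.8. All 5 were brightest in post-reproduction. A pattern over 3 arrays has few ways to vary, so likeness here is only a description.

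**Figure D3:**
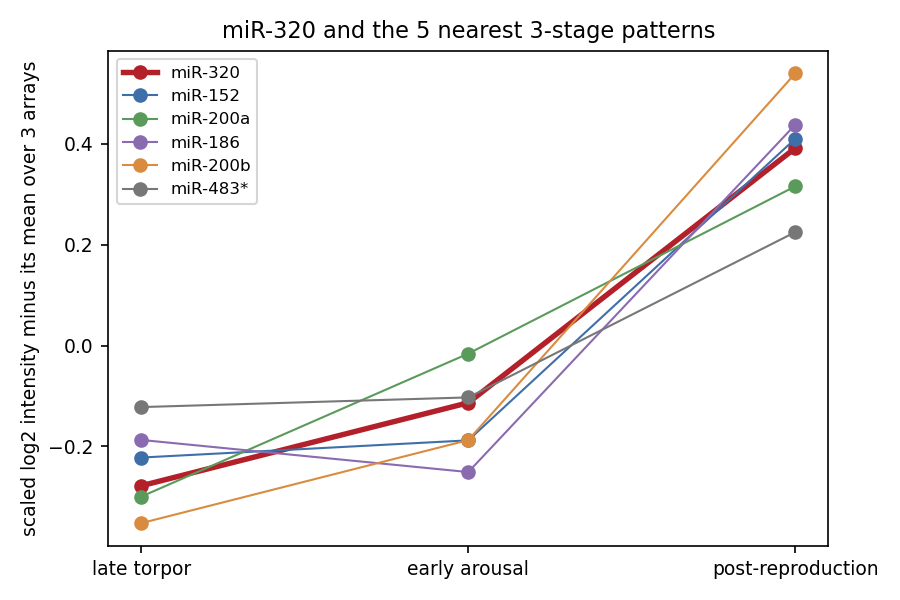
Scaled log2 intensity minus its mean over the 3 arrays (vertical axis) at each stage (horizontal axis) for miR-320 (thick red line) and the 5 measured miRNAs with the nearest patterns, 1 array per stage and no error bars. All 6 are highest in post-reproduction, where miR-320 is at 0.39, against -0.28 in late torpor and -0.11 in early arousal.

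Other miRNAs that avoid the usual processing route were set beside miR-320. Of the 3 capped hairpins listed, miR-320 was the one measured. miR-344 was not detected on any array, its brightest probe reading -0.69 units in post-reproduction, -0.70 in late torpor and -1.09 in early arousal. miR-484 was not detected either, at 8.70, 5.76 and 4.56 units. Its post-reproduction value lay below the lowest spot well above background there (10.7), as did the others on their arrays (8.49 and 10.1). Mirtrons are hairpins released by splicing in place of Drosha, and 2 of 4 were measured. miR-1224 had a log2 difference of 0.70 ± 0.03 in late torpor minus post-reproduction and of 1.78 ± 0.03, past the rule of size, in early arousal minus post-reproduction. miR-877* had 0.08 ± 0.08 and -0.24 ± 0.10. miR-702 was detected in late torpor, at 10.2 units, and not in post-reproduction (9.58) or early arousal (5.53), and miR-877 on no array. miR-451, which is cut by Argonaute in place of Dicer and marks red blood cells, had 1.24 ± 0.02 and 0.53 ± 0.02. Of the measured entries that bypass Drosha, only miR-320 was below 0 in late torpor minus post-reproduction, beside 47 of all 135. miR-877* lay within its SE of 0, and under each of the 6 other scalings 1 mirtron was higher and 1 lower.

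The list of metabolic miRNAs holds 12 entries beside miR-320, 10 of them measured. In late torpor minus post-reproduction 6 were higher and 4 lower, beside 88 and 47 of all 135, with a median of 0.08 against 0.13. Of the 10, 0 passed the rule of size (2.22% of all). With the summed intensity or the unsubstituted all-probe scaling 1 passed, beside 4 and 7 of all 135. Over the 6 other scalings 0 to 3 of the 10 were higher. The lowest was miR-378 (-0.77 ± 0.03), which sits in the gene of a mitochondrial coactivator. miR-27a (-0.26 ± 0.01), a regulator of lipid handling, and miR-107 (-0.12 ± 0.02) and miR-103 (-0.09 ± 0.03), which act on insulin signalling, were the other 3 lower ones. The highest was miR-29a (0.36 ± 0.02). miR-27b (0.08 ± 0.02), miR-143 (0.08 ± 0.02) and miR-335-5p (0.09 ± 0.11) lay near the median. miR-33, which limits cholesterol export, was at 0.26 ± 0.10, and miR-122, the main hepatocyte miRNA, at 0.34 ± 0.03. In early arousal minus post-reproduction 4 were higher and 6 lower, beside 75 and 60 of all 135, with a median of -0.01 against 0.06. Over the 6 other scalings 1 to 6 of the 10 were higher, beside 24 to 80 of all 135. Of these 10 only miR-378 (-1.08 ± 0.02) passed the rule of size, which 3.70% of all measured miRNAs passed. In early arousal minus late torpor 1 was higher and 9 lower, beside 47 and 88 of all 135, with a median of -0.15 against -0.09, and miR-320 was at 0.16. Over the other scalings 1 to 6 of the 10 were higher. miR-370 and miR-375 were not detected on any array.

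The labelled tissue was checked on miR-122, whose brightest probe read 49887 to 59409 units. Markers of cell types in the samples differed between the arrays too. Each list is summed here over the mean intensity of its members, before scaling. In the red blood cell and hepatocyte lists 1 member makes most of the sum, in late torpor miR-451 (3032 units) and miR-122 (41863). The red blood cell list (3 of 3 measured) summed to 3223 units in late torpor, 1954 in early arousal and 1548 in post-reproduction, and all 3 members passed the rule of size upward in late torpor minus post-reproduction, where 2.22% of all measured miRNAs passed. Over the 6 other scalings all 3 stayed above 0 and 1 to 3 passed, beside 2 to 7 of all 135. The leukocyte list (6 of 7 measured, miR-155 not detected) summed to 617, 444 and 504.5 in that order. In late torpor minus post-reproduction 5 of its members were higher and 1 lower, beside 88 and 47 of all 135. Over the 6 other scalings 3 to 5 were higher. In early arousal minus post-reproduction 2 were higher and 4 lower, beside 75 and 60 of all 135. The hepatocyte list (6 of 7 measured, miR-885 not on the array) summed to 46904, 41188 and 41556, and its median difference was 0.29 in late torpor minus post-reproduction, against 0.13 for all 135. Of its measured members 6 of 6 were higher, beside 88 of 135. That count depends on the scaling, with 1 of 6 higher in the unsubstituted all-probe form, 3 where the arrays were quantile normalized and 4 in unscaled values. The muscle list had 0 of 4 members measured (31.6, 19.0 and 14.6 units, miR-206 not detected), and the pancreas list had 0 of 3 detected on any array. The red blood cell, leukocyte, hepatocyte and muscle sums were all higher in late torpor than in post-reproduction, opposite to miR-320. Their part in the miR-320 values was not tested.

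Against post-reproduction the sign of the miR-320 difference stayed below 0 under the processing tried, and its size moved. Under 16 other choices, 2 of which leave its value as it is, the late torpor difference was below 0 in 16, from -1.06 to -0.16, and the early arousal difference in 16, from -0.88 to -0.06. The last of these is the 12-base probe (± 0.11), whose interval includes 0, so it shows no direction. The early arousal minus late torpor difference kept its sign in 15 of 16, from -0.08 to 0.46. The program's total signal of the gene, which adds the probes, was 44.8 in post-reproduction, 29.8 in early arousal and 25.3 in late torpor, and it marked miR-320 as detected on all 3 arrays.

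**Figure D4:**
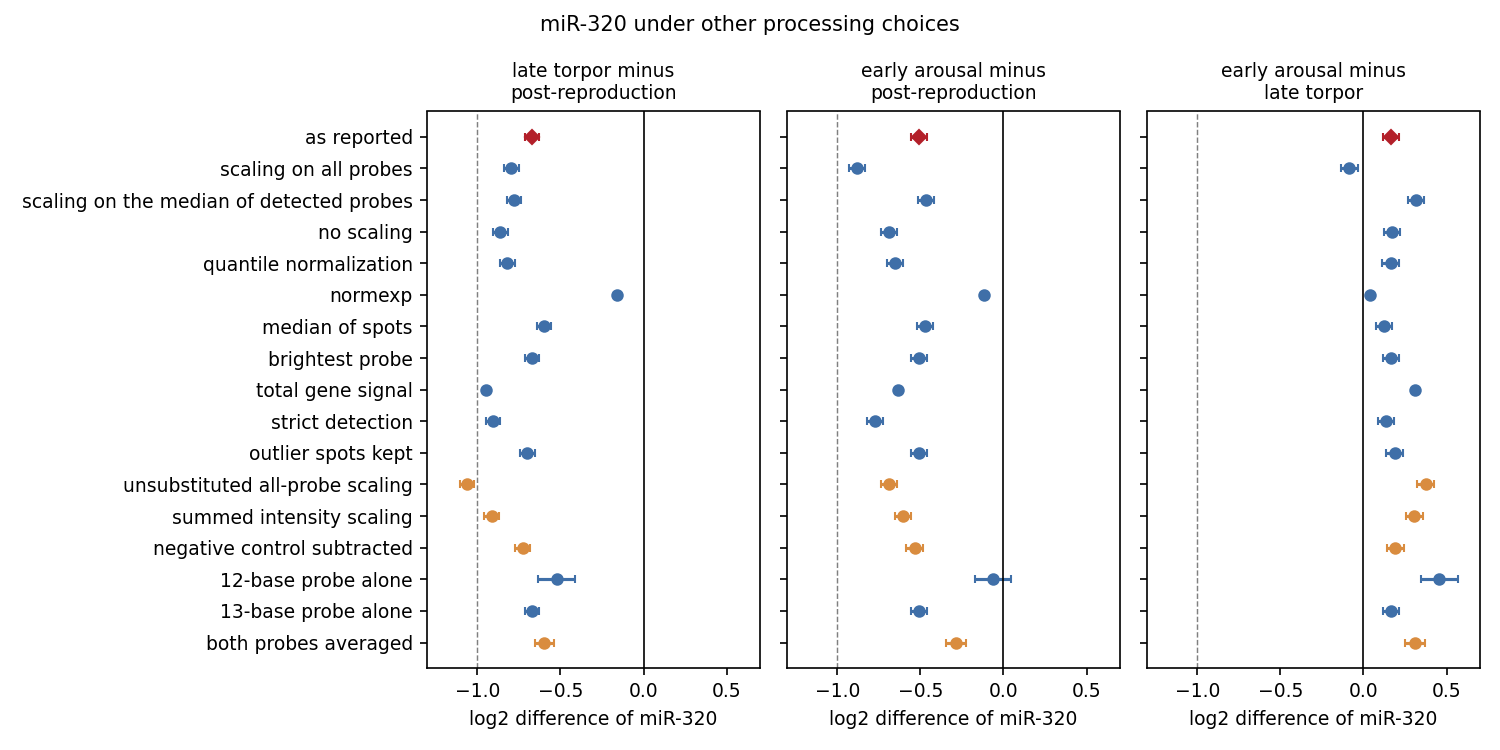
Log2 difference of miR-320 (horizontal axis) in the 3 comparisons under each processing choice (rows), with SE from spots where there is one. The red diamond is the value as reported, blue circles are other settings and orange circles are settings chosen after the data were seen, and the dashed line marks the rule of size at -1. Against post-reproduction every point lies below 0, the nearest being the 12-base probe in early arousal (-0.06 ± 0.11).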

How the data were processed

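Liver RNA pools of 3 stages were measured on 1 Agilent mouse miRNA array each, from 100 ng of total RNA per the labels' protocols. The authors used Agilent Feature Extraction 9.5.3.1, per the submitters' processing notes. Per the file headers each deposited intensity is a spot's mean signal less a fitted spatial trend, with nothing done between arrays. The deposited flags (other values of that program, per the file headers) gave detection and outliers. The authors' deposited series table equalled these intensities at 12493 of 12493 spots on each array.

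Control spots and outlier spots (398, 280 and 317 in early arousal, late torpor and post-reproduction) were left out. Log2 intensities were averaged per probe, scaled as the report states, and averaged over a miRNA's probes detected on all 3 arrays. No miR-320 spot was at or below 0. Differences carry SEs from spots, and no test across arrays is possible. Python 3.11.15 and limma 3.58.1 (normexp) were used, and the steps were checked on simulated spots. The named miRNAs are the lists, the 5 nearest patterns and the 2 brightness neighbours on each side; others named mark a rank or a count and were picked after their values were seen. The member and the lists were chosen with earlier results of these data known.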

Additional observations from a re-analysis of the deposited data

How the results depend on the processing

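Leaving out a replicate was not run, since each stage has 1 array. No paired analysis was possible because each stage has 1 array. The low signal over background limits the precision of miR-320.

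In late torpor minus post-reproduction (-0.67 as reported) miR-320 was at -0.86 without scaling, -0.82 after quantile normalization, -0.16 with normexp, -0.95 with the program's total gene signal, -0.91 with strict detection and -0.52 with the 12-base probe. With alternatives chosen after the data were seen it was at -1.06 with the unsubstituted all-probe scaling and -0.91 with the summed intensity. In early arousal minus post-reproduction (-0.51) it was at -0.88 with all probes in the scaling, -0.69 without scaling and with the unsubstituted form, -0.12 with normexp, -0.77 with strict detection, -0.065 with the 12-base probe and -0.29 with both probes averaged. In early arousal minus late torpor (0.16) it was reversed at -0.084 with all probes in the scaling, and it was at 0.32 with the median, 0.37 with the unsubstituted form and 0.46 with the 12-base probe.

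The percentile of miR-320 moved with normexp from 1.48 to 6.67 in the comparison of late torpor and from 8.15 to 15.6 in that of early arousal with post-reproduction. In early arousal minus late torpor it moved from 83.7 to 76.3 after quantile normalization and to 88.9 with the total gene signal. The share of measured miRNAs brighter than miR-320 was 60.0% in post-reproduction, 77.0% in late torpor and 71.9% in early arousal. It was 65.9%, 82.2% and 79.3% with the brightest probe, 69.6%, 83.7% and 77.0% with the total gene signal, and in late torpor and early arousal 83.6% and 78.1% with strict detection. The number of miRNAs past the rule of size moved from 3 to 1 (normexp), 5 (strict detection) and 7 (unsubstituted form) in late torpor minus post-reproduction. It moved from 5 to 10 (all probes) and 2 (normexp) in early arousal minus post-reproduction, and from 4 to 0 (normexp) in early arousal minus late torpor. The other results moved by less than the spread of spots, by at most 1.5 times (counts) or by less than 5 percentile points. normexp adds 50 units to each spot, which shrinks the differences of dim probes by construction, and the cause of the other changes was not tested.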
